A study of Daphnia pulicaria with 8 samples.

Results

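Chitin is the polymer of N-acetylglucosamine that stiffens the carapace of Daphnia and the peritrophic matrix, the sheath around the food in its gut. Chitin synthases build it, deacetylases strip acetyl groups from it, chitinases cut it when the old carapace is dissolved at a moult, and peritrophins are chitin-binding proteins of the gut sheath. Daphnia goes on moulting as an adult, so all of these genes can be in use in adult animals. The genes described here are those whose deposited name contains chitin or peritrop, other than names with cuticle or cuticular, which gave 219 of 33069 genes. By name they comprised 174 chitinases, 3 chitin synthases, 10 chitin deacetylases, 28 peritrophins and 4 genes named only for a chitin-binding domain.

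RNA-seq libraries came from whole adult Daphnia pulicaria, a freshwater crustacean, that were labelled Red or Pale and taken from 4 lakes named Black, Doe, Long and Round. With 1 library for each combination there were 4 Red and 4 Pale libraries, and no combination was repeated. The protocol speaks of 30 preserved animals for a lake without saying how they were divided between phenotypes or libraries. The labels name no treatment, age or genotype, and the series title names hypoxia and the metabolic phenotype. Values are FPKM, a level per kilobase of transcript, so levels of different genes can be compared. Values of 4 libraries are given in the order Black, Doe, Long, Round.

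Library sums lay between 543804 and 582444 FPKM. A single uncharacterized gene took 45.2% to 48.1% of the sum in Red and 41.0% to 47.1% in Pale, and its share was the larger one in Red in all 4 lakes. The number of reads is unknown; steps in the low values put the depth of the other libraries between 0.901 and 1.12 times that of Black Pale, except for Black Red at 1.86 times. In whole animals fewer cells of a type and less RNA per cell cannot be told apart. Transcripts named for gut enzymes, muscle proteins, opsins and yolk proteins were read as markers of other tissues. Summed gut enzyme names ran from 4907 to 7077 FPKM in Red and from 4707 to 9408 FPKM in Pale, and summed muscle names from 571 to 820.1 FPKM in Red and from 729 to 1179 FPKM in Pale. Eye names summed to 0.813, 1.19, 0.81 and 1.56 times as much in Red as in Pale by lake. At an unadjusted p under 0.05, 2 of their 41 tested genes were lower (4.88%, against 9.29% of all genes) and 5 higher (12.2%, against 2.89%). For yolk names the ratios were 1.33, 0.747, 1.38 and 1.07, with 2 of 19 lower (10.5%) and 1 higher (5.26%). That list was drawn by the words vitellogenin and vitellin, so it also holds vitelline membrane names. Both lower genes were named Vitelline membrane outer layer 1, and the higher one was named Vitellogenin-1 precursor (log2 difference 0.60). The p-values for Red against Pale test the mean Red minus Pale difference, with its variation between the 4 lakes as the error.

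Most of these genes were nearly silent, as were most of all genes, and a few carried the transcripts. The test needed a mean level of 1 FPKM or more, which 100 of the 219 genes reached, against 12865 of all 33069 genes. Of the other 119 members, 24 were listed at 0 in every library. Above 0 in at least 1 library were 195 of the 219 members and 27213 of all 33069 genes. The untested genes together held 0.728% of the summed FPKM of the 219 and no single value above 2.72 FPKM; 56 of them had the lower mean in Red and 39 the higher. Of the tested genes, 2 had a mean under 1 FPKM in Red and 2 in Pale. The 4 most abundant chitinase genes held 65.1% of the summed chitinase FPKM. A single mucin peritrophin held 76.3% of the peritrophin sum.

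Summed over its genes, the chitinase class was lower in Red in every lake. The chitinase sum was 1909, 1324, 1299.8 and 1493 FPKM in the Red libraries, against 2323, 1743, 1785 and 2123 FPKM in the Pale libraries. By lake, Red reached 0.822, 0.76, 0.728 and 0.704 times the Pale sum. Other scalings narrowed the gap in Black, to 0.963 with size factors, 0.914 with quantile normalization and 0.927 rescaled without the most abundant gene. Doe, Long and Round then lay between 0.712 and 0.799. The chitin-binding domain genes were lower in Red in every lake by a wider margin, with sums of 45.8, 46.9, 48.7 and 56.0 FPKM in Red, against 158, 156, 92.6 and 102 FPKM in Pale. Here every Red library lay below every Pale library. The ranges of the other classes overlapped between Red and Pale.

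**Figure D1:**
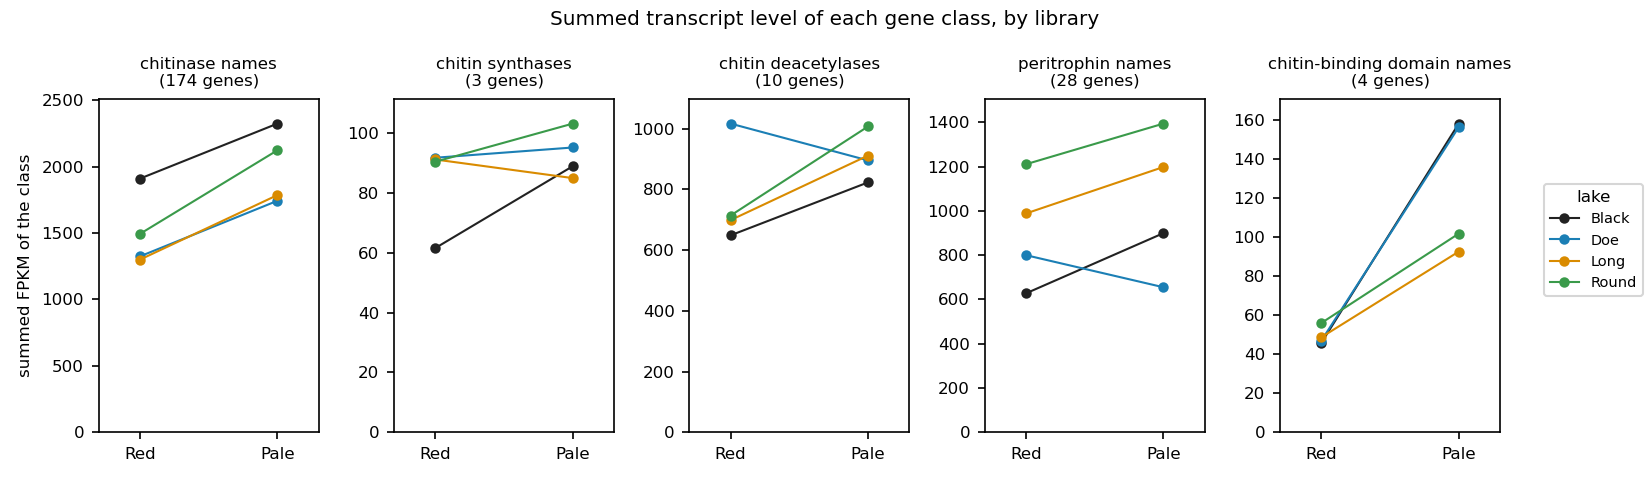
Summed FPKM of each gene class in each library, Red left and Pale right, with a line joining the 2 libraries of a lake and each axis starting at 0. The chitinase and chitin-binding domain lines run upward to Pale in all 4 lakes, while Doe runs the other way for deacetylases and peritrophins.

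Gene by gene, no member passed the test adjusted over all genes, and 80 of the 100 tested members had the lower value in Red, against 61.5% of all genes. That tally depended on scaling, at 67 of 99 with size factors (51.3% of all genes), 62 of 100 with quantile normalization (46.6%) and 66 of 99 when libraries were rescaled without the most abundant gene of the table (49.6%). Limma called 0 of the 100 tested members for Red against Pale, as it called 0% of all 12865 genes tested. At an unadjusted p under 0.05, 26 of the 100 members were lower in Red, against 9.29% of all genes, and 0 were higher, against 2.89% of all genes. With size factors 20 members were lower, against 6.68% of all genes, and 1 was higher, against 5.03%. Quantile normalization gave 18 lower, against 5.18%, and 2 higher, against 6.25%, and rescaling gave 17 lower, against 5.58%, and 1 higher, against 4.98%. Without the Black pair 17 were lower, against 5.82%, and 3 higher, against 2.67%, and without the lake as a block 17 were lower, against 7.77%, and 0 higher, against 2.5%. Members lower in Red in 4 of 4 lakes numbered 27, against 14.6% of all genes, and 1 was higher in 4 of 4 lakes, against 6.57% of all genes. In 12 members every Red library lay below every Pale library, against 4.45% of all genes, and in 0 every Red library lay above, against 1.62% of all genes. Similar copies can share reads and so move together, so the members are not independent of each other.

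The median log2 difference, Red minus Pale, by class was -0.22 for chitinases, -0.23 for deacetylases, -0.21 for peritrophins, -0.13 for chitin synthases and -1.23 for the chitin-binding domain genes, against -0.08 for all genes. Differences are on the log2(FPKM + 1) scale, which understates those of low genes. Quantile normalization moved the median of all genes by 0.11, to 0.02; with it the class medians were -0.13, -0.04, -0.13, 0.06 and -1.05 in the same order, so the sign for chitin synthases turned. Relative to the median of all genes under each of the 4 scalings, chitinases stood between -0.15 and -0.14, peritrophins between -0.16 and -0.13 and the chitin-binding domain genes between -1.15 and -1.08. Deacetylases moved more, between -0.15 and -0.07, and chitin synthases lay between -0.05 and 0.03. Within lakes the chitinase medians were -0.48, -0.00, -0.18 and -0.24, against -0.19, -0.02, -0.07 and -0.03 for all genes, so the middle chitinase gene was level in Doe.

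**Figure D2:**
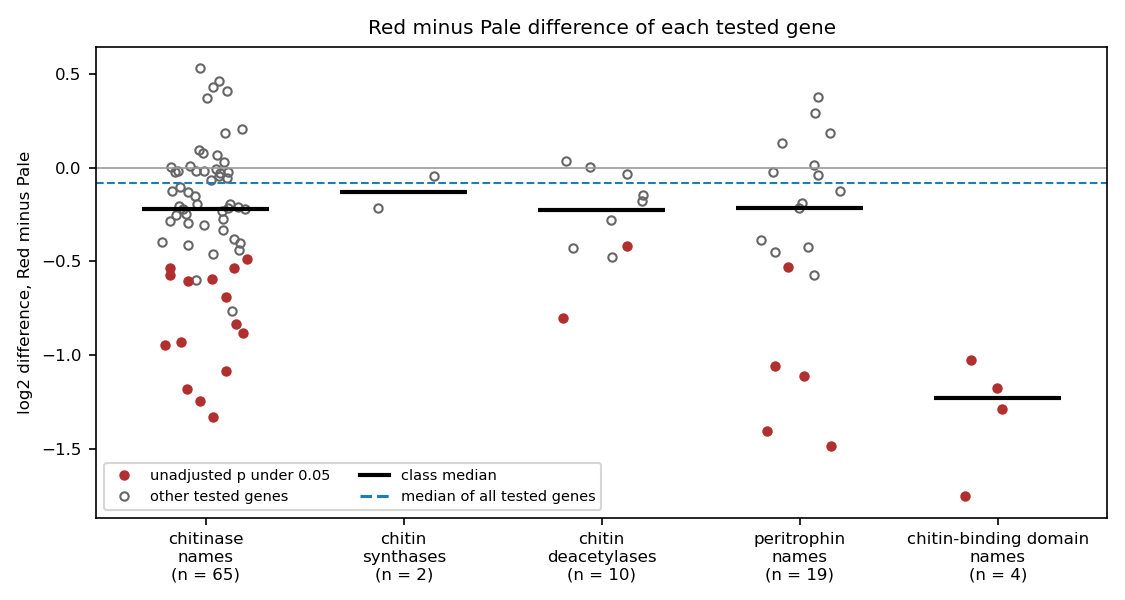
Log2 difference, Red minus Pale, of each of the 100 tested genes by class, with the class median as a bar, the median of all genes as a dashed line and filled points for an unadjusted p under 0.05. All 26 filled points lie below 0, and all 4 chitin-binding domain genes lie at or below -1.03.

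The chitin-binding domain genes had the widest Red to Pale gap of the 5 classes. Their names give a chitin-binding domain. The peritrophin class also holds 10 genes named for a chitin-binding domain, so the split between these classes is one of wording. Chitin bind 3, Chitin binding domain (Daplx7pEVm017936) had 22.01, 14.6, 19.8 and 23.7 FPKM in Red, against 46.0, 68.7, 47.1 and 40.7 FPKM in Pale. Its log2 difference was -1.29 ± 0.25 (SE), with an unadjusted p of 0.00275 and limma adjusted p = 0.277. ChtBD2, Chitin-binding domain type 2, was the name of the other 3. Daplx7pEVm018112 had 14.96, 18.1, 16.9 and 20.6 FPKM in Red, against 44.9, 40.2, 24.6 and 41.0 FPKM in Pale, a difference of -1.03 ± 0.20 (unadjusted p = 0.00231). Daplx7pEVm016079 had 5.14, 9.37, 10.7 and 8.14 FPKM in Red, against 24.4, 28.4, 12.2 and 17.0 FPKM in Pale, a difference of -1.18 ± 0.32 (unadjusted p = 0.011). In these 3 genes the Red and Pale libraries did not overlap, although Long differed by only -0.17 in Daplx7pEVm016079. Daplx7pEVm016998 had 3.68, 4.76, 1.21 and 3.52 FPKM in Red, against 42.9, 19.2, 8.68 and 3.06 FPKM in Pale. Its difference of -1.75 ± 0.53 rested on 3 lakes, since Round was level at 0.15, and without the Black pair its unadjusted p was 0.0628, against 0.0175 with all lakes. Only 51.8% of its FPKM lay in isoforms that carry a chitin name.

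**Figure D3:**
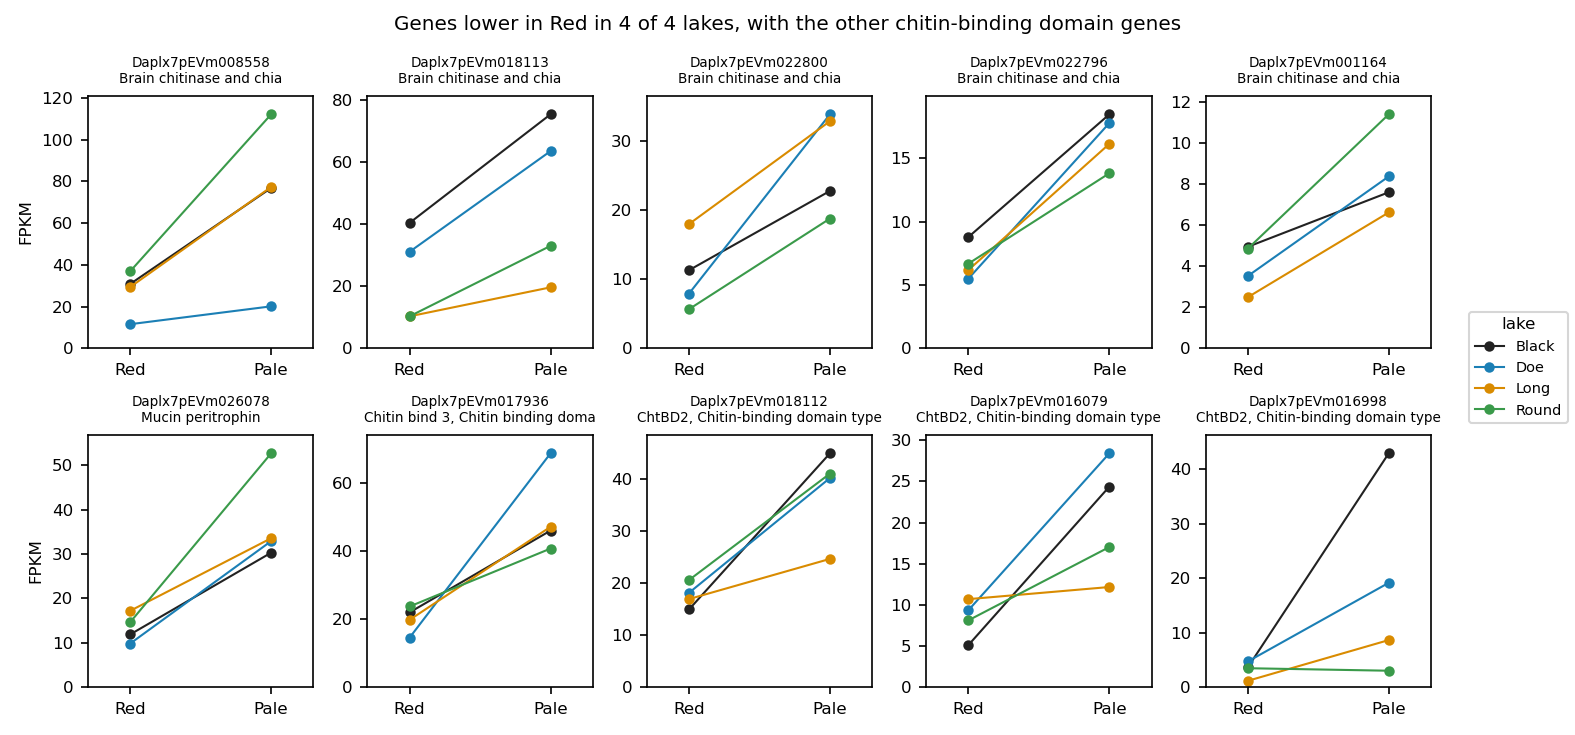
FPKM of 10 genes in each library, Red left and Pale right, with a line joining the 2 libraries of a lake and each axis starting at 0: the 8 genes with the smallest unadjusted p among those lower in Red in 4 of 4 lakes, and the remaining 2 chitin-binding domain genes. Every line runs upward to Pale except that of Daplx7pEVm016998 in Round.

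Chitinases cut chitin chains. One annotation name, Brain chitinase and chia, covered 165 of the 174 chitinase genes, and chia is the symbol of acidic mammalian chitinase; which of the 165 encode a working enzyme cannot be read from the files. Of 65 tested chitinase genes, 52 had the lower value in Red, against 61.5% of all genes. With quantile normalization it was 40, against 46.6%, and with size factors 43 of 64, against 51.3%. At an unadjusted p under 0.05, 15 were lower, against the 9.29% above. The most abundant, Daplx7pEVm009957, had 496, 336, 389.5 and 407 FPKM in Red, against 658, 560.2, 567 and 556 FPKM in Pale. Each Red library lay below each Pale library, at a mean of 407 ± 66.4 FPKM in Red and 585 ± 48.8 FPKM in Pale (SD, n = 4 each). Its log2 difference was -0.53 ± 0.12 (SE), with an unadjusted p of 0.0051 and limma adjusted p = 0.286. Its unadjusted p stayed at or below 0.0258 in all 13 alternatives, of which the choice of members by isoform names repeats the main fit.

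Further chitinase genes of middling level were lower in Red in all 4 lakes. Daplx7pEVm022796 had 8.79, 5.51, 6.19 and 6.69 FPKM in Red, against 18.5, 17.8, 16.1 and 13.8 FPKM in Pale, and Daplx7pEVm001164 averaged 3.95 ± 1.17 FPKM in Red and 8.48 ± 2.06 FPKM in Pale (SD, n = 4 each). Daplx7pEVm022800 had 11.3, 7.94, 18.0 and 5.68 FPKM in Red, against 22.8, 33.9, 32.9 and 18.8 FPKM in Pale. Red and Pale libraries of these genes did not overlap, with log2 differences of -1.18 ± 0.16, -0.95 ± 0.15 and -1.33 ± 0.23 (SE). Daplx7pEVm002575 and Daplx7pEVm001898, singled out after their values were seen, did not overlap either, with differences of -0.93 and -0.83. A single tested chitinase was higher in Red in 4 of 4 lakes. That gene, Daplx7pEVm002027, had 10.2, 5.78, 10.6 and 8.43 FPKM in Red, against 9.31, 5.61, 5 and 5.15 FPKM in Pale, and its difference of 0.43 ± 0.20 had an unadjusted p of 0.0731. Limma's unadjusted p was 0.0392 with size factors, 0.0398 with quantile normalization and 0.0388 rescaled. Without the Long pair the difference was 0.26.

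Some chitinase genes differed by lake at least as much as by phenotype. The F test over lakes called 0 of the 100 members, as it called 0% of all genes; at an unadjusted p under 0.05 it picked 20 members, against 9.9% of all genes. Daplx7pEVm008558 combined both patterns. It had 30.9, 11.6, 29.4 and 37.0 FPKM in Red, against 76.8, 20.1, 77.3 and 112 FPKM in Pale, so it was lower in Red in every lake (-1.24 ± 0.18, SE) and lower in Doe than in the mean of the other lakes by a log2 difference of -1.73 ± 0.20. Daplx7pEVm018113 had 40.5, 31.2, 10.3 and 10.4 FPKM in Red, against 75.5, 63.6, 19.7 and 33.1 FPKM in Pale. It was lower in Red by a log2 difference of -1.08 ± 0.17, higher in Black than in the mean of the other lakes by 1.23 ± 0.20 and lower in Long by -1.27 ± 0.20. Daplx7pEVm023886 was lower in Red by -0.69 ± 0.16, lower in Doe than in the mean of the other lakes by -1.16 ± 0.18 and higher in Round by 0.98 ± 0.18. The lake differences of these 3 genes had limma F test adjusted p-values of 0.231, 0.221 and 0.262.

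Daplx7pEVm017720 followed the lake almost alone. It had 0.85, 19.9, 0 and 9.44 FPKM in Red, against 2.21, 20.4, 0.84 and 4.43 FPKM in Pale. Doe was high and Long near 0 in both phenotypes, and the Red minus Pale difference was -0.19 ± 0.33 (SE). Daplx7pEVm059210 was highest in Black, at 24.4 FPKM in Red and 26.8 FPKM in Pale, against at most 10.2 FPKM in any other library. Daplx7pEVm018323, at 4.69 FPKM in Doe Red and 12.1 FPKM in Doe Pale, was lowest in Round at 0.54 FPKM in Red and 0.35 FPKM in Pale; only 31% of its FPKM lay in isoforms with a chitinase name.

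The third most abundant chitinase gene, Daplx7pEVm009745, ran against the class in 1 lake. It had 638, 84.4, 69.2 and 144 FPKM in Red, against 460, 119, 200.1 and 417 FPKM in Pale. Black was the highest lake in both phenotypes and the only one in which Red was above Pale, with log2 differences of 0.47, -0.49, -1.52 and -1.53 by lake. Its overall difference of -0.77 ± 0.37 (SE) had an unadjusted p of 0.0859, and without the Black pair the difference was -1.18 with an unadjusted p of 0.0107. This gene made up 638 of the 1909 FPKM of the chitinase class in Black Red. Among the 4 most abundant chitinases, Daplx7pEVm002548 and Daplx7pEVm009749 differed by -0.22 ± 0.18 and -0.46 ± 0.20 with unadjusted p-values of 0.258 and 0.0644. In Daplx7pEVm008635 lakes went in opposite directions, with 14.6 FPKM in Long Red against 2.89 FPKM in Long Pale, and 5.13 FPKM in Doe Red against 14.7 FPKM in Doe Pale.

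**Figure D4:**
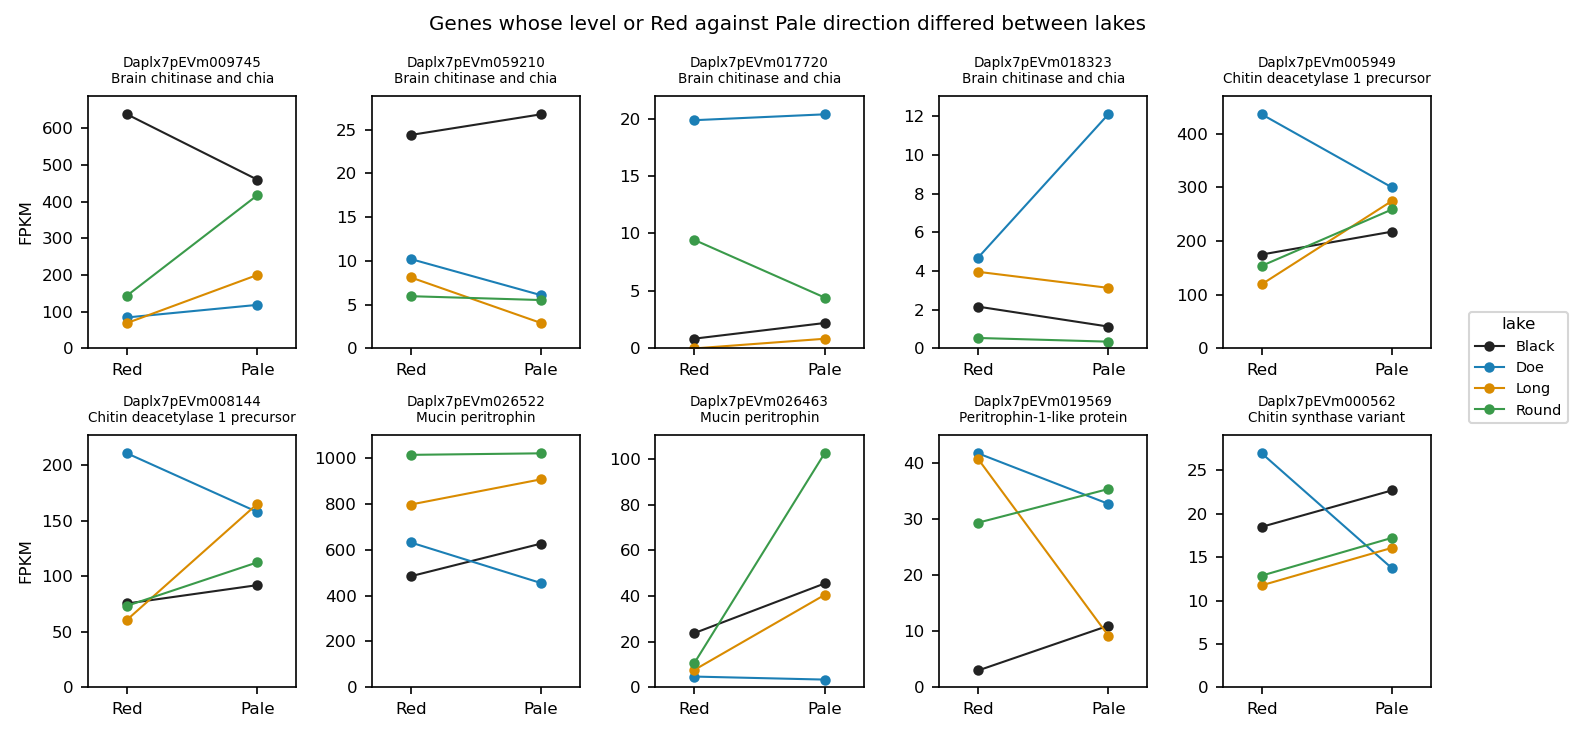
FPKM of 10 genes, picked after their values were seen as examples of differences between lakes, with Red left and Pale right, a line for each lake and axes from 0. Lines of 1 lake stand apart from or cross the others, as for Black in Daplx7pEVm009745 (638 FPKM in Red and 460 FPKM in Pale) and Doe in the chitin deacetylase 1 pair.

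Chitinases with more specific names were few and did not differ beyond their spread; they were singled out for their names. Chitinase 5 precursor (Daplx7pEVm006976), whose insect namesake acts in the breakdown of the old cuticle at a moult, had 13.4, 18.8, 42.8 and 7.80 FPKM in Red, against 29.1, 56.1, 35.5 and 8.19 FPKM in Pale. Red was far below Pale in Black and Doe, level in Round and above it in Long, and the difference was -0.60 ± 0.33 (SE, unadjusted p = 0.122). The 3 genes named Acidic mammalian chitinase summed to 13.4 ± 3.98 FPKM in Red and 16.8 ± 7.28 FPKM in Pale (SD, n = 4 each). Chitinase domain-containing protein (Daplx7pEVm011156) averaged 4.76 ± 1.19 FPKM in Red and 4.41 ± 0.365 FPKM in Pale. Chitinase 3, putative and the 3 genes named Brain chitinase and chia, putative stayed below the level needed for the test.

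Chitin synthases, which join N-acetylglucosamine units into chitin at the cell membrane, showed no difference beyond the spread between lakes. In insects one synthase serves the cuticle and another the gut, but the 3 genes here share the name Chitin synthase variant, which does not say which is which. Daplx7pEVm000820, with 79.8% of the class sum, had 42.8, 64.4, 78.9 and 77.2 FPKM in Red, against 65.7, 81.2, 68.4 and 85.0 FPKM in Pale. Black Red was the lowest library and Long went the other way, with a difference of -0.22 ± 0.17 (SE, unadjusted p = 0.259). Daplx7pEVm000562 had 18.5, 27.0, 11.8 and 12.9 FPKM in Red, against 22.7, 13.7, 16.1 and 17.2 FPKM in Pale. Doe Red was the highest library of this gene and the only Red one above its Pale partner, and the overall difference was -0.04 ± 0.27.

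Chitin deacetylases turn chitin toward chitosan by removing acetyl groups. All 10 passed the filter on level. The lower value was in Red in 8, against 61.5% of all genes, and in 5 with quantile normalization, against 46.6%. The class sum was lower in Red in Black, Long and Round, at 0.788, 0.767 and 0.709 times Pale, and higher in Doe at 1.14 times. Chitin deacetylase 1, which in insects is needed for an ordered cuticle, was represented by a pair of genes that followed each other. Daplx7pEVm005949 had 175, 436, 119.6 and 154 FPKM in Red, against 218, 300.1, 275 and 259 FPKM in Pale. Daplx7pEVm008144 had 75.5, 211, 60.8 and 73.4 FPKM in Red, against 91.98, 158, 165 and 112 FPKM in Pale. In both genes Doe Red was the highest of the 8 libraries and Long Red the lowest, and their differences of -0.43 ± 0.29 and -0.48 ± 0.30 (SE) did not exceed the spread between lakes. These values turned on single lakes: without the Doe pair they were -0.75 and -0.77 with unadjusted p-values of 0.0203 and 0.0349, and without the Long pair they were -0.17 and -0.16. Without Daplx7pEVm005949 the Doe sum was 581 FPKM in Red and 596 FPKM in Pale.

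Of the 10 deacetylases 7 were lower in Red in Doe, while the deacetylase 1 pair was higher. Summed cuticle protein names were also higher in Red in Doe. Those 334 genes summed to 2.61 times as much in Red as in Pale in Doe, against 0.819, 0.815 and 0.612 times in Black, Long and Round; the part of cuticle-forming tissue or moult stage in the Doe deacetylase values was not tested. Of the 243 cuticle genes tested 19 were lower and 8 higher in Red at an unadjusted p under 0.05, with a median of -0.36. Those counts are 7.82% and 3.29% of the cuticle genes, near the 9.29% and 2.89% of all genes. The deacetylases named 9 belong to a group found in the gut of insects, and their summed Red to Pale ratio in Doe was 0.83. The most abundant of these 4, Daplx7pEVm011531, had 124, 141, 123 and 199 FPKM in Red, against 147, 151, 153 and 204 FPKM in Pale, a small gap of the same sign in every lake (-0.18 ± 0.13, SE, unadjusted p = 0.216) that was 0.02 with quantile normalization. Daplx7pEVm011817, named for deacetylase 4, differed by -0.28 ± 0.16, but 86.8% of its FPKM lay in isoforms named for deacetylase 9 and 10.1% in the isoform named for deacetylase 4.

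At an unadjusted p under 0.05, 2 of the 10 deacetylases were lower in Red (20%, against 9.29% of all genes) and 0 higher (against 2.89%). These 2 were named after their values were seen. Daplx7pEVm011398, a deacetylase 9, had 35.7, 40.3, 52.0 and 63.6 FPKM in Red, against 52.2, 54.0, 69.6 and 79.2 FPKM in Pale. Its difference of -0.42 ± 0.13 (SE, unadjusted p = 0.0176) was much the same in each lake, from -0.54 to -0.31. Daplx7pEVm007932, a deacetylase 3, had 18.8, 25.4, 9.95 and 10.5 FPKM in Red, against 44.6, 24.8, 20.7 and 23.1 FPKM in Pale, so Doe was level and the other lakes were lower in Red (-0.80 ± 0.24, unadjusted p = 0.0169). In Daplx7pEVm012336, the least abundant, Long Red had 6.28 FPKM against 0.95 FPKM in Long Pale, while the other lakes were lower in Red.

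The peritrophin sum was carried by 1 gene whose Red and Pale values overlapped. The gene Daplx7pEVm026522, named Mucin peritrophin, had 484, 631, 796 and 1012 FPKM in Red, against 626, 454, 906 and 1019 FPKM in Pale. It was the most abundant of all 219 genes, highest in Round and second highest in Long in both phenotypes, and its Red minus Pale difference was -0.02 ± 0.17 (SE). Because of it the class sum was higher in Red in Doe, at 1.22 times Pale, and lower in the other lakes at 0.698 to 0.868 times. Without that gene the class sum was lower in Red in every lake, at 0.525, 0.842, 0.657 and 0.528 times Pale by lake. Within lakes the medians of the 19 tested peritrophins were -0.51, 0.22, -0.19 and -0.15, against -0.19, -0.02, -0.07 and -0.03 for all genes. The middle peritrophin gene was thus higher in Red in Doe, although the sum without Daplx7pEVm026522 was lower.

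The other mucin peritrophins were mostly lower in Red. Of the 7 tested genes of that name 6 had the lower value in Red, against 61.5% of all genes, with Daplx7pEVm026522 counted among the 6. At an unadjusted p under 0.05, 4 were lower, against 9.29% of all genes. Daplx7pEVm026078 had 11.9, 9.87, 17.2 and 14.7 FPKM in Red, against 30.3, 32.9, 33.5 and 52.6 FPKM in Pale, a difference of -1.40 ± 0.19 (SE, unadjusted p = 0.000377, limma adjusted p = 0.271). Daplx7pEVm018435 had 33.2, 34.9, 25.8 and 47.7 FPKM in Red, against 85.3, 51.6, 91.5 and 70.2 FPKM in Pale, a difference of -1.06 ± 0.25 (unadjusted p = 0.00688). In both genes no Red library reached the lowest Pale library. Daplx7pEVm026463 spread more widely, with 23.8, 4.75, 7.68 and 10.7 FPKM in Red, against 45.5, 3.43, 40.5 and 103 FPKM in Pale. Doe was low in both phenotypes and went the other way. The difference of -1.48 ± 0.58 (unadjusted p = 0.0446) kept an unadjusted p under 0.05 in 4 of 13 alternatives. These include the choice of members by isoform names, which repeats the main fit. Daplx7pEVm025516, singled out after its values were seen, had 2.70, 2.80, 3.31 and 5.44 FPKM in Red, against 9.65, 1.89, 11.6 and 20.9 FPKM in Pale, with Doe again the exception.

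Genes named for the peritrophin-A domain or the peritrophic membrane overlapped in their sums between Red and Pale. The 10 named CDD: CBM_14, Chitin binding Peritrophin-A domain summed to 46.1 ± 4.39 FPKM in Red and 49.4 ± 10.5 FPKM in Pale (SD, n = 4 each), and the 8 named Peritrophic membrane chitin binding protein to 14.0 ± 5.12 and 15.6 ± 1.51 FPKM in Red and in Pale. Among them Daplx7pEVm017836, at 1.47 FPKM in Red and 2.55 FPKM in Pale, was the one with an unadjusted p under 0.05 (0.0451). Peritrophin-44 (Daplx7pEVm010798) averaged 18.6 ± 4.59 FPKM in Red and 21.3 ± 2.02 FPKM in Pale. Summed gut enzyme names and the peritrophin sum went opposite ways in Doe and Long. In Doe the peritrophin sum turned on Daplx7pEVm026522, with a ratio of 0.842 without it, although the median difference of the tested peritrophins there was 0.22. The gut sums were 0.8288, 0.752, 1.18 and 0.862 times as much in Red as in Pale, against 0.698, 1.22, 0.825 and 0.868 times for peritrophins. Of 92 gut enzyme genes tested, 18 were lower (19.6%, against 9.29% of all genes) and 2 higher (2.17%, against 2.89%) in Red at an unadjusted p under 0.05, with a median of -0.26, against -0.08 for all genes; the part of gut tissue in the peritrophin values was not tested.

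The gene named Peritrophin-1-like protein went against its name at the level of isoforms. Daplx7pEVm019569 had 3.01, 41.6, 40.6 and 29.3 FPKM in Red, against 10.97, 32.7, 9.23 and 35.3 FPKM in Pale, with Long higher in Red and Black lower (0.13 ± 0.56, SE). Only 1.54% of its FPKM lay in isoforms with a peritrophin name, and 90.6% in 1 isoform named Poly, so its values are not firmly those of a peritrophin. Among the 100 tested members 94 had at least 50% of their FPKM in isoforms whose own name met the rule. Restricted to these, 24 were lower in Red at an unadjusted p under 0.05, against 9.29% of all genes, and 0 higher, against 2.89%.

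Isoform shares varied little in some abundant genes and widely in others. The leading isoform of Mucin peritrophin Daplx7pEVm026522 held 89.1% to 90.5% of the gene's FPKM in Red and 88.7% to 91.5% in Pale, and that of chitin synthase Daplx7pEVm000820 held 36.3% to 41.4% in Red and 36.3% to 41.3% in Pale. In chitinase Daplx7pEVm009745 the leading isoform held 35.4% in Black Red but 4.56% in Doe Pale. In Mucin peritrophin Daplx7pEVm018435 the leading isoform held 79.6% to 84.4% in Red and 85.3% to 85.6% in Pale. Shares between isoforms are estimates of the authors' quantification, whose error is not given.

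Genes that feed chitin synthesis and finish its breakdown were read beside the members. Beta-hexosaminidases and chitobiases, which split the short chains that chitinases release, summed to 68.5 to 98.3 FPKM in Red and 100.3 to 138 FPKM in Pale, with no overlap. All 9 tested genes had the lower value in Red, against 61.5% of all genes. The sums and this tally are given on the deposited scale only, not under the other scalings, and the nearest sums were 98.3 FPKM in Red and 100.3 FPKM in Pale. The smallest unadjusted p of that list was that of Beta-hexosaminidase fdl (Daplx7pEVm005203), at 31.2 ± 7.98 FPKM in Red and 52.9 ± 6.70 FPKM in Pale (SD, n = 4 each), a log2 difference of -0.77 ± 0.21 (SE, unadjusted p = 0.0126). This was the 1 gene of the list with an unadjusted p under 0.05 (11.1% of those tested, against 9.29% of all genes lower in Red). Of 10 tested genes of amino sugar supply, from trehalase to UDP-N-acetylglucosamine, 8 had the lower value in Red, against 61.5% of all genes. Alpha,alpha-trehalase (Daplx7pEVm007119) differed by -0.52 ± 0.22, and 0 of the 10 reached an unadjusted p under 0.05. Of the 3 tested genes named for the moulting hormone ecdysone, 0 reached it, and Ecdysone-induced protein (Daplx7pEVm011534) differed by 0.26 ± 0.24. Muscle names were also lower in Red in every lake, at 0.691, 0.783, 0.67 and 0.929 times Pale. The lower value was in Red in 8 of the 8 tested muscle genes, with a median of -0.45. At an unadjusted p under 0.05, 6 were lower (75%, against 26% of the tested members and 9.29% of all genes) and 0 higher. The part of tissue make-up in the chitinase values was not tested.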

How the data were processed

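RNA of adult Daphnia pulicaria from 8 libraries was depleted of ribosomal RNA and made into directional libraries, per the labels' protocols. The authors deposited FPKM with 2 decimals per gene and per isoform; gene values equalled the isoform sums to within 0.03. Trimmomatic is named in the submitters' processing notes; no aligner, counting tool or genome build is named, so these are not given in the sources used here. The authors' deposited log2 ratios were not used. None of the deposited gene identifiers (0 of 33069) was found in RefSeq's table for SC_F0-13Bv2, and coordinates were therefore left out.

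Values were analysed as log2(FPKM + 1) where the mean over libraries reached 1 FPKM, with limma 3.58.1 in R 4.3.3 (mean-variance trend, lake as a block, phenotype as a term, two-sided, Benjamini-Hochberg over all 12865 genes, threshold 0.05). Lake was tested by an F test and by contrasts of a single lake with the average of the remaining 3. The lake pairs the libraries by the labels; deviations of Red and Pale had correlations over genes of 0.485 (Black), -0.015 (Doe), -0.021 (Long) and 0.214 (Round); the best match with another lake was 0.0988 for Doe and 0.242 for Long, above their own, so the pairing of these lakes rests on the labels. The procedure was tested on simulated data. Members, lists and named genes were chosen with earlier results of these data known. Named genes were the most abundant of each class, those with the smallest p among genes of 1 sign in 4 of 4 lakes, 2 per lake with the smallest p for that lake, and the widest opposite lakes per class. Alternatives were 3 other scalings, pseudocounts of 0.1 and 5, 2 other filters, no lake block, leaving out each lake, leaving out the top member of a class, and, added after the data were seen, members with at least 50% of FPKM in isoforms named by the rule.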

Additional observations from a re-analysis of the deposited data

Results flagged for a closer look

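In groups of 4 libraries, 8 of 72 groups examined had 1 library far from the other 3. Chance flags about 1 in 20, but many of these genes were named for their values by lake. That rate therefore cannot be set against the 8. Summed chitin synthases were 61.5 FPKM in Black Red, with the other Red libraries at 90.3 to 91.6 FPKM. Black Pale stood apart in 3 chitinase genes: Daplx7pEVm009957 (658 FPKM, others 556 to 567), Daplx7pEVm059210 (26.8 FPKM, others 2.91 to 6.09) and Daplx7pEVm002027 (9.31 FPKM, others 5 to 5.61). Black Red stood apart in chitinase Daplx7pEVm009745 (638 FPKM, others 69.2 to 144). Round Pale was high in deacetylase Daplx7pEVm011531 (204 FPKM, others 147 to 153) and in mucin peritrophin Daplx7pEVm026078 (52.6 FPKM, others 30.3 to 33.5). Doe Red was high in deacetylase Daplx7pEVm008144 (211 FPKM, others 60.8 to 75.5).

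Lakes also went in opposite directions, which could not be tested with 1 library for each lake and phenotype. Ratios of Red to Pale were 1.14 in Doe for summed deacetylases (0.709 to 0.788 elsewhere), 1.22 in Doe for summed peritrophins (0.698 to 0.868 elsewhere) and 1.07 in Long for summed chitin synthases (0.692 to 0.964 elsewhere). Log2 differences were 2.003 in Long and -1.35 in Doe for Daplx7pEVm008635, 0.93 in Doe and -0.42 in Long for Daplx7pEVm000562, 1.90 in Long and -0.72 in Doe for Daplx7pEVm012336, 2.03 in Long and -1.58 in Black for Daplx7pEVm019569, and 0.15 in Round and -3.23 in Black for Daplx7pEVm016998.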

How the results depend on the processing

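Limma called 0 members for phenotype and 0 for lake under every alternative run. The 26 members lower in Red at an unadjusted p under 0.05 became 17 when libraries were rescaled without the most abundant gene and 17 without the lake block. When 1 lake was left out they became 17 to 23, against 5.82% to 9.62% of all genes, the 17 being without Black. The 0 members higher in Red became 1 with size factors, 2 with quantile normalization and 1 rescaled without the most abundant gene. When 1 lake was left out they became 0 to 3, against 1.93% to 2.67% of all genes. With no filter on level 195 members were tested. Of these 5 were higher, against 2.22% of all genes, and 28 lower, against 5.38%. The geometric mean ratio of summed chitinases, 0.752, was 0.811 rescaled without the most abundant gene, and that of peritrophins, 0.884, was 0.626 without their most abundant member. The cause of these changes was not tested beyond the settings' own construction. Of the named genes with an unadjusted p under 0.05, all 14 kept their direction in all 13 alternatives. Much of this was fixed in advance. The filters, the fit without the lake block and the choice by isoform names leave each difference as in the main fit. For a gene lower in Red in every lake, leaving out a lake or changing the pseudocount cannot turn the direction either. For such genes only the other scalings could have turned it. Daplx7pEVm011531, whose unadjusted p was not under 0.05, was -0.18 and became 0.02 with quantile normalization. Without the lake block Daplx7pEVm008558, Daplx7pEVm018113 and Daplx7pEVm023886 had unadjusted p-values of 0.0514, 0.0879 and 0.13. Read numbers are not known here, so the counting error of low values could not be given.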

Other observations

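Outside the members, 10 genes had at least 1 isoform whose own name met the rule. The most abundant, Daplx7pEVm012381, is named conserved protein as a gene, but 15 of its 22 isoforms are named Peritrophic matrix protein 9 precursor. It had 67.1, 116, 91.2 and 143 FPKM in the Red libraries of Black, Doe, Long and Round, against 144, 189, 125 and 153 FPKM in the Pale libraries, lower in Red in each lake (log2 difference -0.58 ± 0.19, SE, unadjusted p = 0.0249). Daplx7pEVm017876, with 1 such isoform of 4, had 2.29, 2.47, 4.34 and 3.2 FPKM in Red, against 4.77, 6.53, 6.68 and 11.3 FPKM in Pale (-0.999 ± 0.197, unadjusted p = 0.00278). Limma adjusted p-values were 0.362 and 0.277. Daplx7pEVm006892, named Obstructor-G, which in Drosophila belongs to a family of cuticle chitin-binding proteins, differed by -0.02 ± 0.21.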
